A study of Mus musculus with 2 samples.

Results

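The genes described are 7 members of the mouse Ms4a family, Ms4a1, Ms4a4b, Ms4a4c, Ms4a6b, Ms4a6c, Ms4a6d and Ms4a7, measured in leukocytes of the liver. They were matched by gene symbol, and all 7 were found among the 31053 genes of the count matrices, which hold 12 other Ms4a genes. The cells came from C57BL/6 mice that were either uninjured (Ctrl) or had passed through liver fibrosis that was then resolved (RES). In each group the liver mononuclear cells of 5 mice were pooled, sorted for CD45 and CD11b by flow cytometry, and made into 1 droplet library of 3′ transcript ends. The agent of injury, the time allowed for resolution, and the age and sex of the animals were not given in the sources used here. With 1 library a group there was no replicate, so the group, the pool of mice and the library cannot be told apart, no test between groups was possible, and every interval below covers counting error only.

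Proteins of this family are tetraspan membrane proteins that sit in complexes with immune receptors, where several of them shape signalling. Ms4a1 encodes CD20, the B cell antigen that therapeutic antibodies bind, and Ms4a4b encodes a protein of T and NK cells that associates with the co-stimulatory receptor GITR. The Ms4a6 genes and Ms4a7 are mainly known from monocytes and macrophages, Ms4a7 as a marker of mature tissue macrophages, and the human MS4A locus is linked to levels of soluble TREM2.

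On the GRCm38 assembly all 7 genes are protein-coding and lie within 355175 bases of chromosome 19, in GENCODE M21. Ms4a1 (chr19:11249675-11266241), Ms4a7 (chr19:11321039-11336146) and Ms4a6d (chr19:11586604-11604849) are on the minus strand. Ms4a4c (chr19:11404770-11427246), Ms4a4b (chr19:11443553-11467055), Ms4a6c (chr19:11469366-11482192) and Ms4a6b (chr19:11516512-11531256) follow each other on the plus strand. The neighbours Ms4a4b and Ms4a4c shared 91.8% of aligned coding bases, Ms4a6b and Ms4a6c 86.3%, Ms4a6b and Ms4a6d 81.8%, and Ms4a6c and Ms4a6d 79.7%. All other pairs of members lay between 60.9% and 69.0%. Of the 50-base words in the last 500 bases of their transcripts, which 3′ reads sample, another gene held 11.1% for Ms4a4c, 7.76% for Ms4a6c, 4.31% for Ms4a6b, 4.22% for Ms4a4b and none for the other 3 members. Reads from those stretches cannot be assigned to 1 gene, so levels of Ms4a4b, Ms4a4c, Ms4a6b and Ms4a6c carry that uncertainty.

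Near-copies of the coding sequence also had similar promoters. These are shown because the levels of Ms4a4b and Ms4a4c peaked in different cell classes, NK cells and classical monocytes. Outside T cells, those of Ms4a6b and Ms4a6c both peaked in classical monocytes, but only Ms4a6b was high in T cells. RefSeq windows on GRCm38.p6, from 250 bases before to 50 after the start site, existed for 5 of the 7 members. Over these 300 bases, 76.7% of the window was identical between Ms4a4b and Ms4a4c and 64.0% between Ms4a6b and Ms4a6c, against 52.0% to 57.7% for the other pairs. The 250 bases before the start are printed 5′ to 3′ on the plus strand, for Ms4a4b (chr19:11443308-11443557), Ms4a4c (chr19:11407411-11407660), Ms4a6b (chr19:11518309-11518558) and Ms4a6c (chr19:11469118-11469367). Capitals mark runs of 15 or more bases found in both windows of a pair, 3 runs of up to 20 bases in the first pair and 2 runs of up to 48 bases in the second.
Ms4a4b: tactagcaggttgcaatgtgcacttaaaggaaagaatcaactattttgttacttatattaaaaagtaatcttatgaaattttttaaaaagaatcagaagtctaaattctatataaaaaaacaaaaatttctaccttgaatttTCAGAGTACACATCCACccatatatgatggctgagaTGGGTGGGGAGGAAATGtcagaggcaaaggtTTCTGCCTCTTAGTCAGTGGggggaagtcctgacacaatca
Ms4a4c: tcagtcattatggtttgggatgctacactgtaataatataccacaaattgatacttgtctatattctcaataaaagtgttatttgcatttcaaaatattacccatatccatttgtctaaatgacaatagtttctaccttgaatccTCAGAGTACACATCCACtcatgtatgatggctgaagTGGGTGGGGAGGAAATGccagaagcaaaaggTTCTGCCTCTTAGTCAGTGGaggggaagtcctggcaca
Ms4a6b: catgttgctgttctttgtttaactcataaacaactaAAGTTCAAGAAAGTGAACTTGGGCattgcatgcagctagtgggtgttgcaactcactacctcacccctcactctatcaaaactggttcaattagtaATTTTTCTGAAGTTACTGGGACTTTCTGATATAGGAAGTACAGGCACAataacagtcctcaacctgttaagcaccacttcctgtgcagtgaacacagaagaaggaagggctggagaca
Ms4a6c: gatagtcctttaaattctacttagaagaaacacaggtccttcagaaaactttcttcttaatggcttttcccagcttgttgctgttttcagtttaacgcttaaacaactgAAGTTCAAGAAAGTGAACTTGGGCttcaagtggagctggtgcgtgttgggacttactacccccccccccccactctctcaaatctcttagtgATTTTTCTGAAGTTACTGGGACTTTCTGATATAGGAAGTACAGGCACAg
The first shared run of Ms4a6b and Ms4a6c holds GAAAGTGAA, a match to GAAANNGAA, the core bound by interferon regulatory factors with 1 letter fewer, which 8.56% of 32851 RefSeq windows hold on either strand. The full form, with 1 more A at its end, is held by 3.44% of windows and was in no member's window. AGGAAG, the core of sites bound by the myeloid factor PU.1, was found 3 times in Ms4a6b and once in Ms4a6c, and 35.4% of all windows hold it. Neither of these motifs was found in the windows of Ms4a4b or Ms4a4c, and GAAANNGAA was in both windows of Ms4a7. Other motifs searched on both strands were in no member's window: GAGGAAGT, a longer PU.1 form that contains AGGAAG (3.20% of all windows), TTCNNNGAA of STAT factors (8.30%), TCACACCT of T-box factors (1.28%) and TGTGGTTT of RUNX factors (1.78%). The composite site of PU.1 and an interferon regulatory factor (2.72%) was in none, and its form GGAANNGAA (8.24%) was found after the start of Ms4a6c. These matches describe letters in the windows and say nothing on binding.

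Of 3691 barcodes in Ctrl and 4278 in RES, 3337 and 4011 were kept, with a median of 4507 and 6360 unique molecular identifiers (UMIs, each a counted transcript molecule) per cell. Marker gates that use no Ms4a gene gave, in Ctrl and RES, 1570 and 1479 NK cells, 295 and 472 classical, 131 and 117 intermediate and 368 and 603 nonclassical monocytes. They gave 112 and 597 macrophages, 232 and 147 conventional dendritic cells (cDC) and 68 and 63 B cells. Median UMIs per cell were alike in nonclassical monocytes (5638.5 and 5133) but not in macrophages (4625 and 11276). Levels are given as UMIs of a gene per 1000000 UMIs of the class (CPM), with the 95% exact Poisson interval in brackets, and always as Ctrl then RES. Ptprc, which encodes CD45, was present in every class at 477 CPM or more, whereas Itgam, which encodes CD11b, was low in B cells at 57.6 and 55.4 CPM against 225 and 269 CPM in NK cells. The libraries shared 56 barcodes, of which 54 had more UMIs in RES, and the 49 kept in both had a median of 633 UMIs in Ctrl against 29324 in RES. Among them were 18 of the 112 Ctrl macrophages, with 1.79% of that class's UMIs, and 9 RES macrophages, with 3.65%, so results in macrophages are given with and without shared barcodes.

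Ms4a1 was almost confined to B cells in both libraries, where it stood at 817 CPM [734 to 907] in Ctrl and 1103 CPM [1006 to 1206] in RES. In the other 6 classes it reached at most 4.80 CPM, and no UMI was found in the Ctrl classical monocytes, which allows up to 1.32 CPM (3 counts). The 466 and 437 cells outside every gate held 112 and 85.3 CPM. That level is 401 and 466 UMIs of Ms4a1, against 355 and 478 in the gated B cells. A UMI of Ms4a1 was seen in 61 of 68 Ctrl and 60 of 63 RES B cells, with a median of 4 UMIs per cell in each library. After every cell was thinned to 1000 UMIs, 55.2% [42.6 to 67.4] and 58.1% [44.8 to 70.5] of B cells held one, against 0.0645% and 0% of NK cells. The bracketed ranges of shares are 95% Clopper-Pearson intervals, and 1471 NK cells with no UMI allow a share of up to 0.204%.

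Ms4a4b marked the cytotoxic and T lymphocytes. In NK cells it was equal in the libraries, at 1557 CPM [1525 to 1589] and 1574 CPM [1544 to 1605]. The next of the 7 classes were classical monocytes, at 42.7 and 54.7 CPM, so NK cells stood 36.4-fold over the next class in Ctrl and 28.8-fold in RES. The T cells that the gates left beside these classes, 49 and 52 cells, had 1132 CPM [1014 to 1259] and 1481 CPM [1353 to 1618]. A UMI was seen in 1495 of 1570 and 1457 of 1479 NK cells, and in 73.9% and 75.7% of NK cells after thinning. In thinned B cells the share was 2.99% and 1.61%, and in thinned classical monocytes 4.10% and 5.94%. Levels of Ms4a4b in B cells, cDC, nonclassical monocytes and macrophages lay between 6.37 and 20.7 CPM and mostly overlapped between neighbours in the order.

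Ms4a6b was high in T cells as well as in monocytes. Among the monocyte classes, classical monocytes led with 419 CPM [393 to 446] and 425 CPM [407 to 444], and intermediate monocytes followed at 360.3 and 331 CPM, overlapping them in Ctrl only. T cells reached 497 CPM [420.3 to 584] and 509.9 CPM [436 to 593], a level that neither Ms4a4c nor Ms4a6c showed in T cells. NK cells held 98.5 and 89.4 CPM and B cells 41.4 and 36.9 CPM. In thinned T cells 34.7% and 44.2% had a UMI, against 5.97% and 6.45% of thinned B cells and 7.80% and 8.23% of thinned NK cells. Which of these classes lack Ms4a6b is not known here, so its low values in NK and B cells were not told apart from free RNA in the droplets. The same holds for the low values of the monocyte members in NK and B cells.

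Ms4a6c had the highest UMI level of the 7 in every monocyte class, in cDC and in macrophages, on a scale of 3′ tags that does not grow with transcript length. In classical monocytes it stood at 1345 CPM [1298 to 1394] and 1359 CPM [1327 to 1392], and 292 of 295 and 472 of 472 cells held a UMI. The level stepped down to 1127 and 1053 CPM in intermediate, 744 and 856 CPM in nonclassical monocytes, and 631 and 581 CPM in cDC. Ctrl macrophages, at 818 CPM [749 to 892], did not separate from Ctrl nonclassical monocytes [709 to 780.3]. RES macrophages, at 241 CPM, stood below cDC. In NK cells the level was 57.3 and 49.8 CPM, with a UMI in 4.96% and 5.71% of thinned cells against 68.9% and 73.5% of thinned classical monocytes.

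Ms4a4c also peaked in classical monocytes, despite its near identity to the NK gene Ms4a4b. It stood there at 569 CPM [539 to 601] and 497 CPM [477 to 517], and at 445 and 314 CPM in intermediate monocytes. Among cDC it was 202 and 214 CPM, and among nonclassical monocytes 154 and 91.6 CPM. NK cells, with 29.7 and 20.6 CPM, were at the bottom of the order in both libraries, and 2.19% and 1.22% of them had a UMI after thinning, against 38.2% and 34.6% of classical monocytes.

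Ms4a6d and Ms4a7 were the members whose highest Ctrl class was macrophages. Ms4a6d stood there at 176 CPM [144 to 212], above classical monocytes at 124 CPM [109.7 to 139]. In RES the order differed, with classical monocytes at 146 CPM [136 to 157] first and nonclassical monocytes, macrophages and intermediate monocytes overlapping at 108, 101 and 97.8 CPM. Ms4a7 was at 142 CPM [114 to 175] in Ctrl and 39.9 CPM [35.3 to 44.9] in RES macrophages. In the other 6 classes Ms4a7 reached at most 17.5 CPM, and in cells outside every gate 31.7 and 25.3 CPM, so among the 7 classes Ctrl macrophages stood 10.8-fold over the next class and RES macrophages 2.28-fold. Cells outside every gate held 114 and 138 Ms4a7 UMIs, against 89 and 269 in macrophages. Thinned macrophages held an Ms4a7 UMI in 16.3% and 3.36% of cells, against 0.193% and 0% of NK cells.

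**Figure D1:**
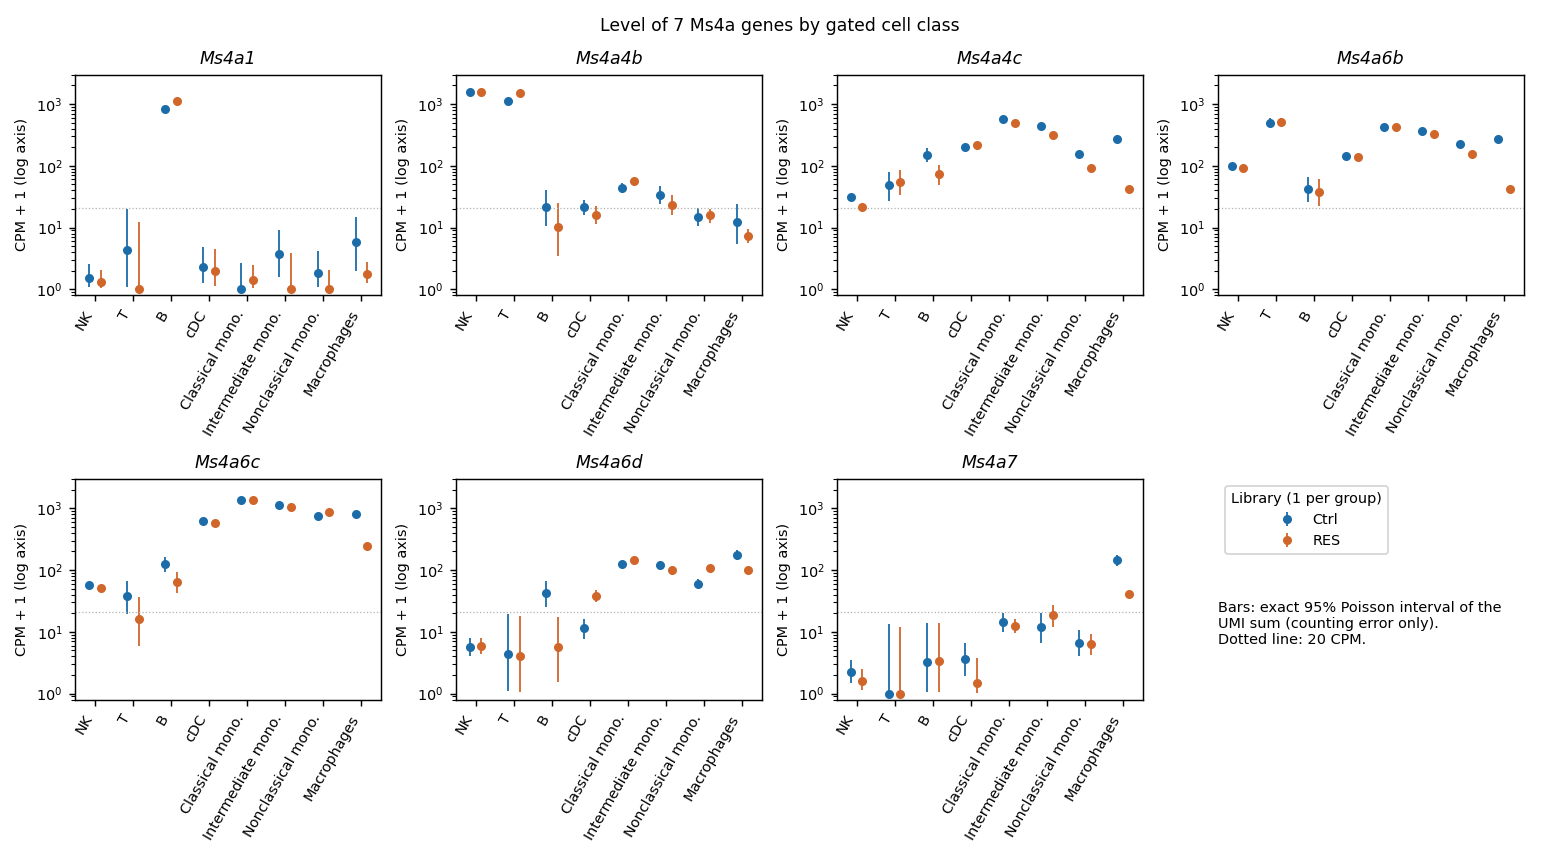
Level of each of the 7 genes (CPM + 1, log axis, 1 panel a gene) in each cell class and in T cells of the Ctrl and RES libraries, with bars for 95% Poisson intervals of the counts and a dotted line at 20 CPM. Ms4a1 peaks in B cells, Ms4a4b in NK cells, Ms4a4c and Ms4a6c in classical monocytes, and Ms4a7 in macrophages.

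Smaller gated classes added cells in which the members were also seen. Migratory dendritic cells, 37 and 32 cells, held Ms4a4c at 315 CPM [252 to 389] and 107 CPM [73.1 to 151] and Ms4a6c at 289 and 127 CPM. Plasmacytoid dendritic cells, only 9 and 12 cells, held Ms4a6c at 195 CPM [104 to 334] and 393 CPM [290.1 to 522], with intervals that overlap.

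Summed over the 7 genes, the family took 2513 and 2494 CPM in classical monocytes, 1749 and 1740 CPM in NK cells, and 1694 and 471 CPM in macrophages. Its makeup, given as shares of the 7 genes' UMIs, differed by lineage. Ms4a4b made up 89.0% and 90.5% of it in NK cells and 65.8% and 71.8% in T cells, where Ms4a6b added 28.9% and 24.7%. In B cells Ms4a1 held 68.3% and 85.5%. Classical monocytes mixed Ms4a6c (53.5% and 54.5%), Ms4a4c (22.7% and 19.9%) and Ms4a6b (16.7% and 17.1%). In macrophages the share of Ms4a6d was 10.4% in Ctrl and 21.5% in RES, while that of Ms4a6c was 48.3% and 51.1%.

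Several members were seen in the same classical monocyte, whereas NK cells mostly showed 1. After thinning to 1000 UMIs, 18.1% and 19.1% of classical monocytes held UMIs of 3 or more members, and 66.3% and 68.3% of NK cells held exactly 1. Only 5.19% and 3.34% of nonclassical monocytes held 3 or more, and 40.4% and 40.1% held none. Macrophages without any member's UMI were 27.9% of the Ctrl and 69.4% of the RES cells. Among thinned Ctrl classical monocytes, Ms4a6b was seen in 48.2% of the 112 cells with an Ms4a4c UMI and in 25.4% of those without. In RES these shares were 36.8% of 163 cells and 28.6%. Nonclassical monocytes showed the same order, with Ms4a6b in 34.8% of cells with and 16.2% without Ms4a4c in Ctrl, and 30.2% and 9.52% in RES. In NK cells the order of Ms4a6b with and without Ms4a4b turned between libraries, at 8.46% and 5.93% in Ctrl and 7.73% and 9.78% in RES. Cells of 1 library are not replicates, so these shares describe the libraries only.

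The libraries were then compared within each class, as log2 of RES over Ctrl with an exact conditional binomial interval. A pair of member and class was counted when it differed by 1.5-fold or more and reached 20 CPM in either library. Of 49 pairs, 34 reached that level, 10 of these were lower in RES, 2 were higher and 22 lay within 1.5-fold. Over all genes 7.99% of such pairs were lower and 8.41% higher. The lower pairs lay in macrophages (5), B cells (4) and nonclassical monocytes (1), and the higher ones in cDC and nonclassical monocytes, both of them Ms4a6d. Some of these pairs reached 20 CPM only in the library where they were high. They were Ms4a6d in cDC, in RES only, and Ms4a4b and Ms4a6d in B cells, in Ctrl only.

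In NK cells and classical monocytes no member was past 1.5-fold. Of all genes tested in NK cells 0.824% were higher and 0.757% lower in RES, and in classical monocytes 4.58% and 4.36%. The 4 members that passed the level filter in NK cells had a median log2 ratio of -0.17, against -0.03 over all genes, and the 5 in classical monocytes 0.02 against 0.02. In NK cells Ms4a4b differed by 0.02 [-0.02 to 0.06], Ms4a6b by -0.14 [-0.31 to 0.03] and Ms4a4c by -0.53 [-0.87 to -0.20]. In classical monocytes Ms4a6c and Ms4a6b each differed by 0.02, Ms4a4c by -0.20 [-0.29 to -0.10] and Ms4a6d by 0.24 [0.04 to 0.45]. The value of Ms4a6d there depended on the setting, at 1.31 with gates and sums at 1000 UMIs, 1.29 without cells of 2 or more interferon-list UMIs and -0.30 with clusters in place of gates. Intermediate monocytes had no member past 1.5-fold either, beside 7.42% of genes higher and 5.98% lower, with Ms4a4c at -0.50 [-0.70 to -0.31] and Ms4a4b at -0.56 [-1.33 to 0.19].

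Nonclassical monocytes, which patrol the vessel wall, parted the members. Ms4a6d rested on 136 and 388 UMIs and was 59.0 CPM [49.5 to 69.8] in Ctrl and 108 CPM [97.2 to 119] in RES, a log2 ratio of 0.87 [0.58 to 1.16]. Ms4a4c went the other way, at -0.75 [-0.97 to -0.53], and Ms4a6b stood at -0.55 [-0.72 to -0.38], just inside 1.5-fold. Ms4a6c differed by 0.20 [0.12 to 0.29]. Thus 1 of the 4 members at this level was higher and 1 lower, where 4.67% and 2.72% of all genes were. The ratio of Ms4a6d was 0.53 when gates and sums were made on cells thinned to 1000 UMIs and 0.54 with clusters in place of gates, both within 1.5-fold. That of Ms4a4c was -0.40 with clusters and -0.17 without the cells that held 2 or more interferon-list UMIs.

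In cDC, which present antigen to T cells, Ms4a6d was 10.3 CPM on 24 UMIs in Ctrl and 37.2 CPM on 76 UMIs in RES, a log2 ratio of 1.85 [1.17 to 2.57]. The other 4 members that reached 20 CPM there lay within 1.5-fold, Ms4a4c at 0.09 and Ms4a6c at -0.12. Of all genes in cDC 5.68% were higher and 4.59% lower. After thinning, 0.866% [0.105 to 3.09] of Ctrl and 4.79% [1.95 to 9.63] of RES cDC held an Ms4a6d UMI, with overlapping intervals. The summed macrophage marker list was 116 CPM in Ctrl cDC and 145 CPM in RES cDC, with 1 and 0 of its 8 genes at 0, and its part in the difference was not tested.

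In B cells Ms4a1 was higher in RES by 0.43 [0.23 to 0.63], within 1.5-fold. Without the 1 Ctrl and 3 RES B cells whose barcodes were shared it was past 1.5-fold, at 0.63. The members that are low in B cells were lower in RES or within 1.5-fold. Ms4a4c differed by -1.07 [-1.73 to -0.43], Ms4a6c by -1.0 [-1.72 to -0.31], Ms4a6d by -3.17 [-6.32 to -1.10] and Ms4a4b by -1.17 [-3.32 to 0.67]. These 4 of 6 members stand beside 15.1% of genes lower and 17.2% higher in B cells, and they rest on few molecules, 18 and 2 UMIs for Ms4a6d and 9 and 4 for Ms4a4b. With clusters in place of gates Ms4a4c was -0.41, Ms4a6c -0.25 and Ms4a4b -0.47, all within 1.5-fold, as were Ms4a4c at 1000 UMIs (-0.26) and Ms4a6c without interferon-list cells (-0.22) or as a mean of per-cell CPM (-0.51). For Ms4a6c, 1 cell held 20 of the 54 UMIs in Ctrl and another 17 of the 27 in RES. Fcer1g and Tyrobp, which encode signalling adaptors, were lower with them, at 389 and 129 CPM and at 276 and 131 CPM. The classical monocyte list was 523 and 501 CPM in B cells, with 2 and 0 of its 7 genes at 0, and the macrophage list 479 and 634 CPM, with 2 and 1 of 8 at 0. Their part in these differences was not tested.

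**Figure D2:**
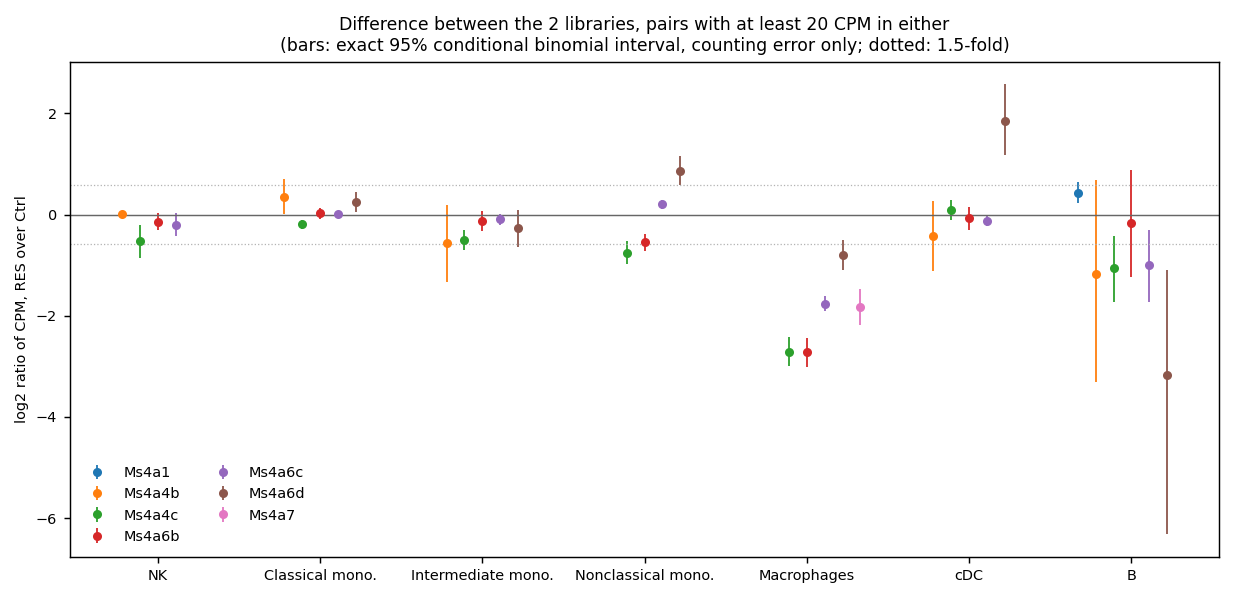
Log2 ratio of RES over Ctrl for each member and class that reached 20 CPM in either library, with 95% counting intervals and dotted lines at 1.5-fold. All 5 macrophage values are below the lower line, and Ms4a6d is the only member above the upper line, in nonclassical monocytes and cDC.

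In macrophages all 5 members that reached 20 CPM were lower in RES, where 21.2% of genes were lower and 17.4% higher, and their median log2 ratio was -1.84 against -0.02 over all genes. Ms4a6b was 273 CPM [234 to 318] in Ctrl and 41.4 CPM [36.6 to 46.5] in RES, a ratio of -2.72 [-3.0 to -2.44]. Ms4a4c was 269 and 40.9 CPM, a ratio of -2.71 [-3.0 to -2.43]. Ms4a7 differed by -1.84 [-2.19 to -1.47] and Ms4a6c by -1.76 [-1.91 to -1.62], while Ms4a6d, at 176 and 101 CPM, differed least with -0.80 [-1.09 to -0.49]. The value of Ms4a6d came within 1.5-fold with clusters (-0.38), as a mean of per-cell CPM (-0.52) and without interferon-list cells (-0.43). Without shared barcodes, which left 94 and 588 cells, the ratios were -2.72 for Ms4a6b, -2.68 for Ms4a4c, -1.83 for Ms4a7, -1.76 for Ms4a6c and -0.81 for Ms4a6d. RES macrophages were deeper, so UMIs per cell gave smaller gaps, with a mean of 1.53 and 0.467 for Ms4a6b, 4.57 and 2.72 for Ms4a6c, and 0.795 and 0.451 for Ms4a7. For Ms4a6d the mean per cell was 0.982 in Ctrl and 1.14 in RES, the opposite order to its CPM. How far depth sets these levels was not tested.

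The class was not of the same makeup in the libraries. Of the Ctrl macrophages 88 were gated by complement genes C1qa, C1qb and C1qc alone, 7 by these and by Arg1 and Spp1 (genes of repair and tissue remodelling), and 17 by Arg1 and Spp1 alone. In RES the same states held 51, 283 and 263 cells. Among the Ctrl cells of the last state 15 of 17 carried shared barcodes, and the median was 634 UMIs, so only the C1q state was compared between libraries. The summed macrophage list was 16486 and 6038 CPM in the whole class, the Kupffer cell list 52.7 and 13.8 CPM with 1 of 6 genes at 0 in each, and the classical monocyte list 3582 and 12005 CPM with none of 7 at 0. Their part in the members' ratios was not tested. Within the C1q state no member that reached 20 CPM was past 1.5-fold, beside 18.6% of genes lower and 14.3% higher. Ms4a6b was 297 CPM [254 to 346] and 295 CPM [247 to 349], a log2 ratio of -0.01, and Ms4a6c 899 and 862 CPM, a ratio of -0.06. Ms4a6d was 182 and 166 CPM, and Ms4a4c 292 and 229 CPM, a ratio of -0.35 [-0.72 to 0.01]. Ms4a7 was 156 CPM [125 to 192] in Ctrl and 205 CPM [166 to 251] in RES, so that its ratio, 0.40 [-0.04 to 0.83], pointed opposite to that of the whole class. Thinning to 1000 UMIs left 79 Ctrl and 49 RES cells of the C1q state. An Ms4a6b UMI was held by 26.6% and 14.3% of them, and an Ms4a6d UMI by 18.99% and 8.16%. Both shares were lower in RES, with overlapping intervals. The shares were 50.6% and 53.1% for Ms4a6c, 17.7% and 16.3% for Ms4a4c, and 16.5% and 16.3% for Ms4a7. Why shares and CPM differ for Ms4a6b was not tested. Marker lists also differed between the libraries within these C1q cells. The Kupffer cell list was 53.1 and 13.1 CPM, with 1 and 4 of 6 genes at 0. The classical monocyte list was 2795 and 4638 CPM, and the macrophage list 17785 and 14570 CPM. The interferon list stood at 975 and 196 CPM. The part of these lists in the members' levels was not tested.

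Inside the RES library the 5 members were all lower in both Arg1 and Spp1 states than in the C1q state, where 17.4% of genes were lower in each contrast. Ms4a6b was 295 CPM in the C1q state, 19.9 CPM in cells with both sets and 26.7 CPM in cells with Arg1 and Spp1 alone, log2 ratios of -3.89 and -3.47. Ms4a4c followed with 229, 17.5 and 39.1 CPM, and Ms4a6c with 862, 158 and 242 CPM. Ms4a7 was 205, 33.7 and 20.6 CPM. Ms4a6d was 166, 87.5 and 107 CPM, the smallest step, with ratios of -0.92 and -0.63. Compared with RES classical monocytes, Ms4a7 was higher in both states by 1.55 and 0.85, whereas Ms4a6d stood at -0.74 and -0.45. In UMIs per cell Ms4a6d averaged 1.49, 1.07 and 1.15 across the RES states, against 2.65, 0.244 and 0.285 for Ms4a6b. These states are ranges cut from UMI counts in 1 library, not cell types.

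**Figure D3:**
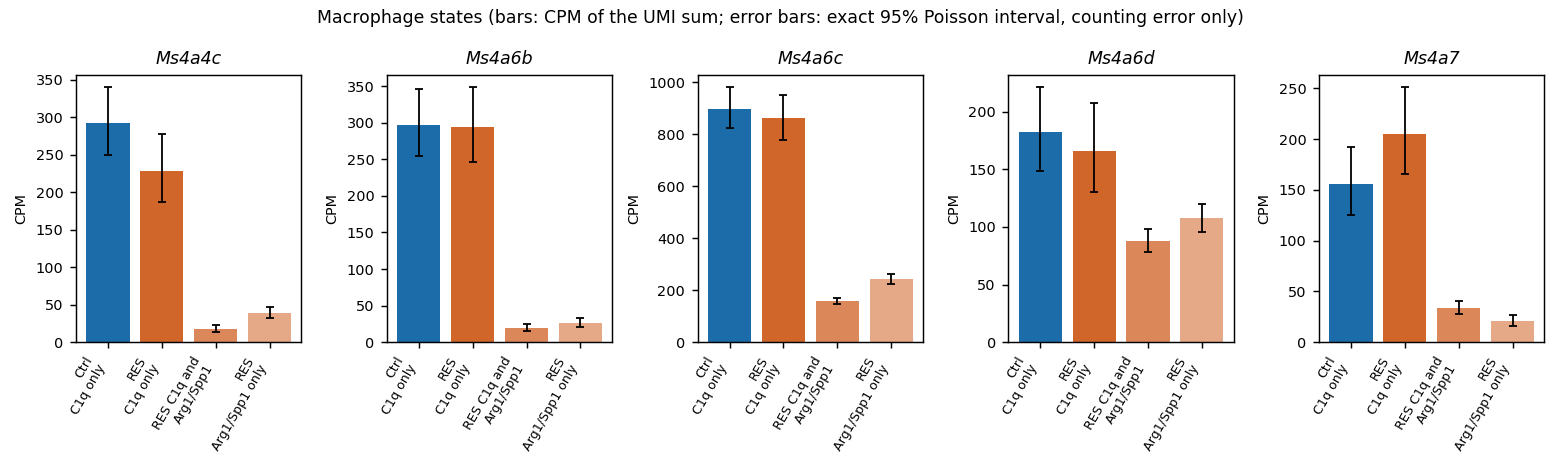
Level (CPM, bars from 0) of the 5 macrophage members in the C1q state of both libraries and in the Arg1 and Spp1 states of RES, with 95% Poisson intervals. In CPM, the Ctrl and RES C1q states lie within 1.5-fold for each gene. The RES Arg1 and Spp1 states lie below them, least so for Ms4a6d.

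The interferon-response list of 10 genes (Isg15, Ifit1, Ifit2, Ifit3, Rsad2, Usp18, Irf7, Oasl2, Ifi44 and Cxcl10) was higher in Ctrl in every class. It summed to 1612 and 393 CPM in classical, 331 and 98.2 CPM in nonclassical monocytes, 900 and 32.6 CPM in macrophages and 336 and 152 CPM in cDC. Monocytes were therefore split by their UMIs of that list into cells with 0, 1, and 2 or more. Ms4a4c stepped up with the list in Ctrl classical monocytes, at 269, 438 and 739 CPM, and in RES, at 383, 448 and 620 CPM. Ms4a6d went from 39.5 through 60.8 to 179.7 CPM in Ctrl but only from 114 through 129 to 183 CPM in RES. In nonclassical monocytes Ms4a6d was 27.5, 68.2 and 102 CPM in Ctrl and flat in RES, at 107, 111 and 107 CPM.

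Deeper cells hold more UMIs of any list, so the split was repeated on cells thinned to 2000 UMIs. In Ctrl classical monocytes 76 cells had 2 or more interferon UMIs and 155 had none, and 2 of the 5 members that reached 20 CPM were 1.5-fold or more higher in the former, where 21.2% of genes were. Ms4a4c was 974 against 345 CPM, a log2 ratio of 1.5 [1.13 to 1.87], and Ms4a6d, on 38 and 19 UMIs, had a ratio of 2.03 [1.20 to 2.91]. Ms4a6b and Ms4a6c differed by 0.56 and 0.49. In RES classical monocytes, with 53 and 344 cells, 4 of 5 members were higher beside 20.9% of genes, Ms4a4c by 1.13 [0.79 to 1.46] and Ms4a6d by 0.86 [0.17 to 1.5]. In Ctrl nonclassical monocytes all 5 were higher beside 25.7% of genes, Ms4a4c by 2.37 and Ms4a6b by 1.80, and Ms4a6d by 1.31 [-0.49 to 2.81] on 5 and 17 UMIs. Ms4a4b reached 20 CPM there only in the cells with 2 or more, on 2 and 7 UMIs, at 1.27 [-2.04 to 3.66]. In RES, 12 nonclassical monocytes had 2 or more such UMIs, and 4 of 5 members were higher beside 32.1% of genes, Ms4a4c by 2.53 and Ms4a6b by 1.82, and Ms4a7 on only 2 and 1 UMIs. Ms4a6d was the exception there, at -0.19 on 2 and 97 UMIs. In intermediate monocytes 3 of 5 members were higher in Ctrl and 3 of 6 in RES, beside 26.6% and 32.6% of genes, Ms4a4c by 1.45 and 1.29. Of these, Ms4a4b in RES reached 20 CPM only in the 18 cells with 2 or more, on 1 and 2 UMIs, with an interval of -4.88 to 5.26. Intervals of other members counted there also held 0. They were Ms4a4b in Ctrl, at 1.42 [-0.56 to 3.47] on 6 and 5 UMIs, and Ms4a6d in Ctrl, at 1.15 [-0.02 to 2.33]. Ms4a6b in RES stood at 0.88 [-0.01 to 1.72].

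The ratio of Ms4a6d between the libraries was also taken, without thinning, within cells with 0 and with 2 or more interferon-list UMIs. In nonclassical monocytes with 0 such UMIs Ms4a6d was 27.5 CPM [18.4 to 39.5] in Ctrl and 107 CPM [93.8 to 121] in RES, a log2 ratio of 1.95 [1.40 to 2.56], beside 8.33% of genes higher. With 2 or more the ratio was 0.07 [-0.48 to 0.62]. In classical monocytes the ratios were 1.53 [0.89 to 2.23] with 0, beside 10.7% of genes higher, and 0.03 [-0.21 to 0.27] with 2 or more. In intermediate monocytes they were 0.44 [-0.52 to 1.47] with 0 and -0.41 [-0.85 to 0.04] with 2 or more. Whether the difference itself varies with the list was not tested.

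**Figure D4:**
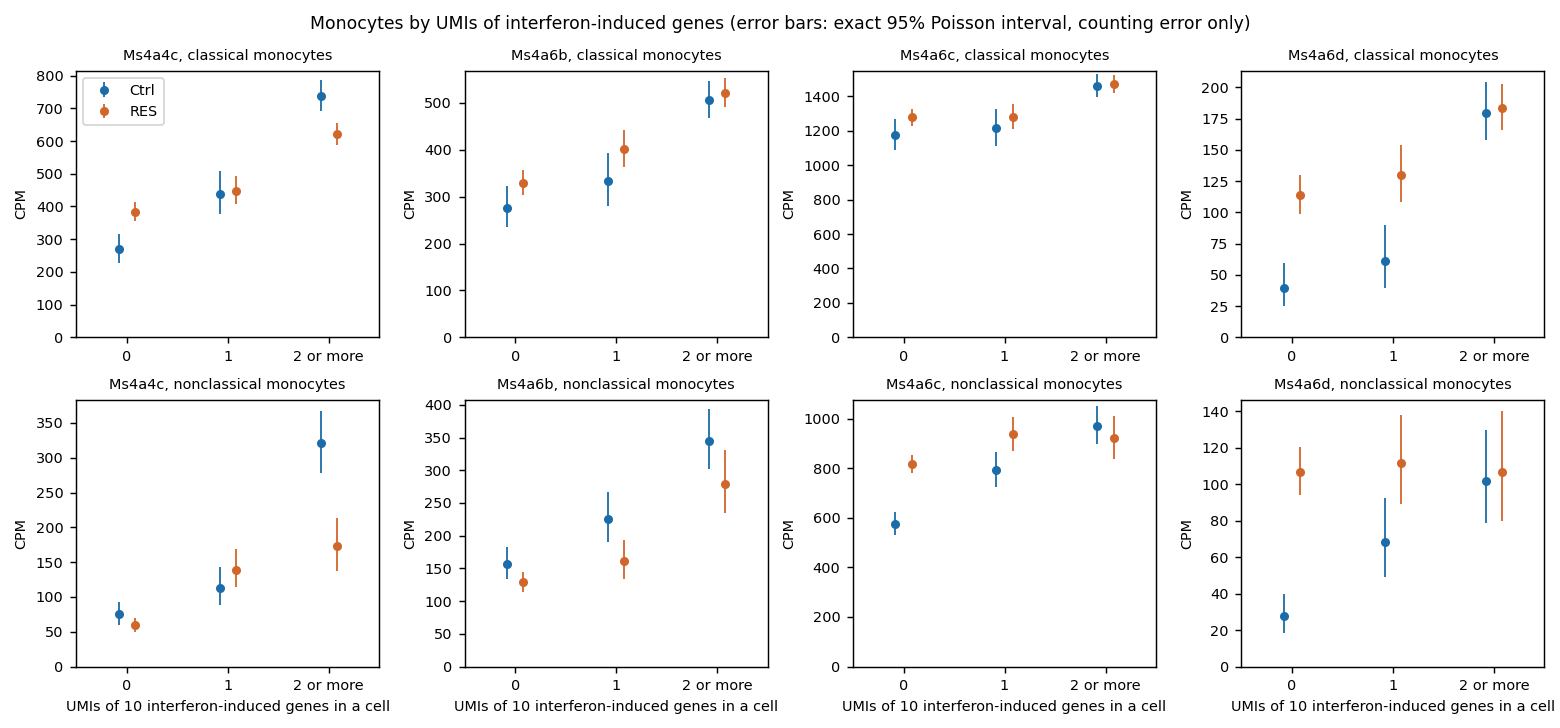
Level (CPM) of 4 members in classical and nonclassical monocytes with 0, 1, and 2 or more UMIs of the 10-gene interferon list, in Ctrl and RES, without thinning, with 95% Poisson intervals. Ms4a4c steps up in both libraries, and Ms4a6d steps up in Ctrl nonclassical monocytes but is flat in RES.

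For each member the 3 genes with the most similar levels were taken over the 14 sums of class and library, by Pearson correlation of log2(CPM + 10) among 4732 genes. The sums share libraries and depth, so the values only describe likeness. Ms4a1 was most like Iglc2, Fcmr and Blk, B cell genes (r up to 0.999). Ms4a4b was most like Klrb1f, Gprin3 and Fam189b (up to 0.987), and Ms4a4c like Slfn5, Fam111a and Pnp (up to 0.932). For Ms4a6b they were Trafd1, Eif4e3 and Oas3 (up to 0.965), and for Ms4a6c Tifa, Gpr141 and Fam49b (up to 0.984). Ms4a6d was most like Lamp2, Lilrb4a and Lamp1 (up to 0.962), of which the Lamp genes encode lysosomal membrane proteins. Ms4a7 was most like Slc7a8, Mertk and Fam213b (up to 0.946), where Mertk is the receptor by which macrophages take up dying cells. Among the members, Ms4a4c and Ms4a6c were the closest pair at 0.85, and Ms4a4b and Ms4a4c, the closest in sequence, stood at -0.50.

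Of 11 other Ms4a genes examined, those named next reached 20 CPM in a class, and 4 had no UMI in any class. Ms4a8a was 48.9 and 82.6 CPM in classical monocytes, a log2 ratio of 0.76 [0.45 to 1.07], and Ms4a4a 12.2 and 28.3 CPM in nonclassical monocytes, a ratio of 1.22 [0.60 to 1.88]. The related tetraspan genes Tmem176a and Tmem176b were lower in RES macrophages as the members were, Tmem176a at 439.6 and 96.6 CPM. Tmem176b was 652 and 129.5 CPM in the whole class, a ratio of -2.33, but 719 and 722 CPM in the C1q state.

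Of 11 genes for reported partners and co-receptors of these proteins, 40 of 77 pairs with the 7 classes reached 20 CPM, 4 were higher and 5 lower in RES, beside 8.41% and 7.99% of all pairs of gene and class, and 31 lay within 1.5-fold. In NK cells Tnfrsf18, which encodes GITR, was 92.7 and 96.2 CPM beside the equal levels of Ms4a4b. In B cells Syk, a kinase of antigen receptor signalling, was 315 and 521 CPM, a log2 ratio of 0.73 [0.41 to 1.04]. Trem2, a lipid receptor of macrophages, was higher in RES by 0.79 [0.52 to 1.07] in classical and 0.64 [0.25 to 1.04] in intermediate monocytes. In macrophages, whose makeup differed between the libraries, Trem2 was within 1.5-fold, at 0.50, where all 5 members were lower. Fcgr3, an activating Fc receptor, was 432 and 234 CPM in macrophages, a ratio of -0.88 [-1.07 to -0.69].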

How the data were processed

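Raw UMI counts per gene and cell were deposited by the authors as filtered matrices, made with Cell Ranger 3.1.0 per the file headers. The submitters' processing notes also name bcl2fastq and mm10. Multi-mapped reads and any removal of doublets by the authors were not given in the sources used here. Total counts were 20379164 in Ctrl and 34119806 in RES.

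Barcodes were kept if they held 200 genes or more and no more than 10% of mitochondrial counts, less 109 and 146 barcodes with the highest Scrublet scores (scanpy 1.11.5). Classes were gated on summed marker UMIs, for example at least 6 for NK and B cells and 3 for each monocyte set or for C1qa, C1qb and C1qc. Macrophages with Arg1 and Spp1 needed 6 of those. Thresholds were set after marker levels were seen, without any Ms4a gene. Counts were summed per class (scipy 1.17.1, pandas 2.3.3), and shares of cells with a UMI were read after thinning to 1000 UMIs. No test was run, since each group is 1 library, and the interval code was tested on simulated data. All 7 members are named in every class. Other family genes are named at 20 CPM or more, and likeness used genes at 50 CPM or more. One gene of the partner list is not reported here. The members and lists were chosen with earlier results of these data known. Alternatives covered scaling, filters, gates, clusters, doublets, cell weight, interferon cells and pseudocount. Leaving out shared barcodes, the C1q-only gate and 3 short motifs were added after seeing the data.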

Additional observations from a re-analysis of the deposited data

Results flagged for a closer look

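Ms4a6d was singled out because its direction between the libraries was opposite in different classes, a difference that was not tested. Its log2 ratio of RES over Ctrl was 0.87 in nonclassical monocytes and 1.85 in cDC, against -0.80 in macrophages and -3.17 in B cells. Ms4a6d reached 20 CPM only in RES in cDC and only in Ctrl in B cells. The value in B cells rests on 18 and 2 UMIs, and after thinning to 1000 UMIs no B cell of either library held one. The value in macrophages was -0.14 in the C1q state alone.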

How the results depend on the processing

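The count of 2 pairs higher in RES was 1 with at least 100 CPM, 1 with clusters in place of gates, 4 without a level filter, 5 with gates and sums at 1000 UMIs and 6 without the cells that held 2 or more interferon-list UMIs. The count of 10 pairs lower was 17 without a filter, 6 with clusters and 5 with the C1q-only macrophage gate, and 7 to 13 in the other settings. Under that gate all 5 macrophage calls ended and Ms4a7 turned to 0.40. Ms4a6d in macrophages was also within 1.5-fold with clusters (-0.38), as a mean of per-cell CPM (-0.52) and without interferon cells (-0.43). In classical monocytes it was higher, by 1.31 at 1000 UMIs and 1.29 without interferon cells. In B cells the calls of Ms4a4c (-0.26 at 1000 UMIs, -0.41 with clusters), Ms4a6c (-0.25 with clusters, -0.51 as a mean of per-cell CPM, -0.22 without interferon cells) and Ms4a4b (-0.47 with clusters) ended. Ms4a6b in nonclassical monocytes passed 1.5-fold, at -0.61, with either other scaling. Ms4a1 in B cells passed it, at 0.63, without shared barcodes. At 1000 UMIs, Ms4a4c and Ms4a6b in cDC stood at -2.00 and -1.42 on 21 and 14 cells. The causes were not tested. Intermediate monocytes had no cluster of their own. No paired analysis was possible because each group has 1 library. Values under about 20 CPM rest on few molecules in the small classes.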
